A study of Mus musculus with 16 samples.

Results

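Genes for chaperones of the endoplasmic reticulum (ER) and for the unfolded protein response were followed in sorted CD4+CD8+ thymocytes of NOD-AI4 mice. The set was chosen by mouse symbol, with each symbol mapped to 1 Ensembl identifier, and held 10 of the 46517 gene identifiers in the files: Hspa5, Hsp90b1, Calr, Canx, Pdia3, Pdia4, Pdia6, Dnajb9, Xbp1 and Herpud1. All 10 passed the filter on low counts. The groups were 6 NOD-AI4 controls (3 males and 3 females), 5 mice labelled NOD-AI4-Nfkbid-/- (4 males and 1 female) and 5 NOD-AI4-60A mice, which carry an Nfkbid transgene (3 males and 2 females). All mice were 6 to 7 weeks old, and all share the NOD background and the AI4 T cell receptor, which comes from an autoreactive CD8 T cell clone. Each library is stranded total RNA from live sorted cells of 1 mouse. Neither the deleted allele nor the promoter of the transgene is given in the sources used here.

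Proteins that enter the ER are folded there by HSP70- and HSP90-type chaperones, by the lectin chaperones calnexin and calreticulin, and by disulfide isomerases. When unfolded proteins pile up, the membrane sensors IRE1, PERK and ATF6 are activated; IRE1 splices the Xbp1 transcript, and cleaved ATF6 and spliced XBP1 raise the transcription of chaperone and degradation genes. In T cells this machinery folds the T cell receptor and the co-receptors, and calreticulin and PDIA3 also serve in loading peptides onto MHC class I molecules.

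Several of these genes carry the ER stress response element (ERSE) near their transcription start, the site through which ATF6 acts together with the CCAAT-binding factor NF-Y. The RefSeq promoter windows of build GRCm38.p6 hold 250 bases before and 50 bases after each start, and all 10 genes had a window. On both strands, ERSE (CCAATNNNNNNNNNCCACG) was found in the windows of 5 of the 10 genes, against 0.119% of all 32851 windows, and its second form ERSE-II (ATTGGNCCACG) in 1 of the 10, Herpud1, against 0.0365%. The CCAAT box alone was in 9 of the 10 (37.4% of all windows) and CCACG alone in 8 of the 10 (32.8%); both are inside ERSE by its construction. The core of the unfolded protein response element (TGACGTGG) was in 0 of the 10 and in 0.676% of all windows. The matched stretches are shown to let the spacing be compared, 5′ to 3′ on the gene's strand, with the fixed letters of the element in capitals (CGTGG and ATTGG where the match lies on the opposite strand).
Hspa5, chr2:34772020-34772048, plus strand: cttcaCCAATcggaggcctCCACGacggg
Hsp90b1, chr10:86705633-86705661, minus strand: caagcCCAATcgcaaggagCCACGcttcg
Hsp90b1, chr10:86705528-86705556, minus strand: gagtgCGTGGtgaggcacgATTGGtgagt
Calr, chr8:84847070-84847098, minus strand: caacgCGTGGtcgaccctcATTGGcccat
Canx, chr11:50325795-50325823, minus strand: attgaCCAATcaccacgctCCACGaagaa
Pdia6, chr12:17266486-17266514, plus strand: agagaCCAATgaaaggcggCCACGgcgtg
Herpud1 (ERSE-II), chr8:94386372-94386392, plus strand: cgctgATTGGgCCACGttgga
Hsp90b1 had 2 matches, on opposite strands, and Calr had its single match on the strand opposite to the gene. Measured from the RefSeq start, the nearest ERSE match was that of Hspa5, 65 to 47 bases upstream. The farthest was the distal one of Hsp90b1, 212 to 194 bases upstream. The GENCODE annotation begins Hspa5 at chr2:34771970, so by that start the Hspa5 match lies inside the gene. Pdia3, Pdia4, Dnajb9 and Xbp1 had no match to these letters in this window.

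**Figure D1:**
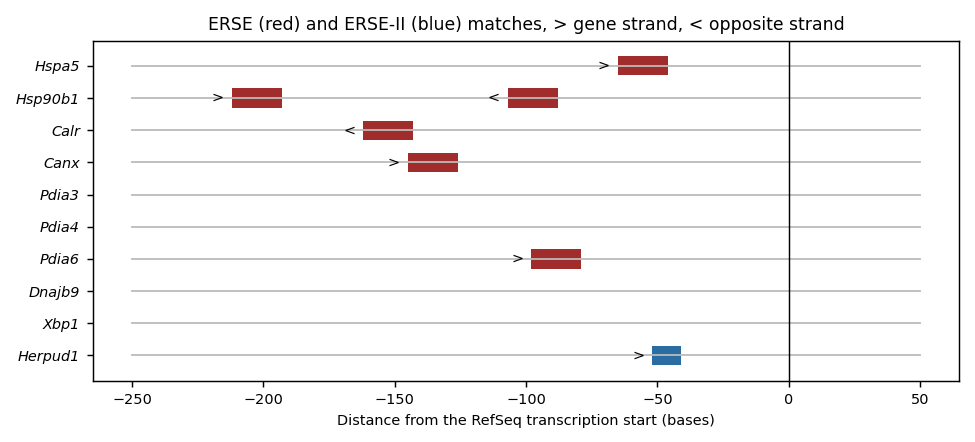
Matches to ERSE (red) and ERSE-II (blue) in the promoter windows of the 10 genes, plotted by distance in bases from the RefSeq transcription start, with the strand of the match marked by an arrowhead. The ERSE matches lie between 212 and 47 bases upstream, and 4 genes have no match.

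Library totals were 17955743 to 35637813 estimated counts, and in controls the females (17955743 to 18888169) were shallower than the males (25052921 to 26586220). Levels are given as CPM, counts scaled to a common library size. Nfkbid, the targeted gene, had a mean of 32.7 ± 2.9 CPM in controls (SD, n = 6). In libraries labelled knockout the mean was 31.6 ± 4.3 CPM (n = 5), and with the transgene it was 208.1 ± 72.1 CPM (n = 5). It was higher in transgenic libraries than in controls (exact permutation p = 0.00216, two-sided, the smallest that 462 permutations can give), and knockout-labelled and control libraries were not told apart (exact permutation p = 0.608). Since the counts do not show the deletion, those mice are called knockout-labelled below. Mouse identifiers of all controls have 1 prefix and those of all other mice another, so genotype and identifier series cannot be told apart wherever controls are the reference, and only the transgenic with knockout-labelled comparison stays within 1 series. The defining markers of the sorted cells were present in every group: the sum of the 10 double-positive markers ranged over 5791 to 8583 CPM in controls, 6073 to 7529 CPM in knockout-labelled libraries and 5857 to 6523 CPM with the transgene. The median sums were 8347, 6743 and 6330 CPM in turn, so both other groups were lower than controls by that measure.

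Most of the chaperone genes were modestly higher in both non-control groups, while the BiP cofactor Dnajb9 was lower. Between knockout-labelled and control libraries, 7 of the 10 genes were called higher and 1 lower at a Benjamini-Hochberg adjusted p under 0.05 (edgeR quasi-likelihood test), where 26.4% of all 14933 genes tested were called, 16.4% higher and 10% lower. Between transgenic and control libraries, 7 were again called higher and 1 lower, where 38.6% of all genes were called, 23% higher and 15.6% lower. The median log2 fold change of the 10 was 0.23 in knockout-labelled and 0.26 in transgenic libraries, against 0.02 and 0.03 over all genes tested. Both comparisons use the same 6 controls. In neither did any of the 10 exceed a fold of 1.2 when the test was made against that size, so the calls show a direction and not a change beyond 1.2-fold. Correcting for GC content and length lowered several transgenic values by over 1.5 times: the log2 fold change became 0.17 for Hspa5, 0.23 for Calr, 0.06 for Pdia3, 0.05 for Pdia4, 0.23 for Pdia6 and 0.16 for Herpud1, while Hsp90b1 stayed at 0.25 and Dnajb9 was -0.49. In knockout-labelled libraries it became 0.14 for Pdia4 and 0.21 for Herpud1, and the Pdia3 and Pdia4 calls were lost. That correction also lowered the median over all genes tested, to -0.019 in knockout-labelled and -0.045 in transgenic libraries. With it, 1967 of all genes were called higher and 2112 lower in knockout-labelled libraries, and 2389 higher and 3583 lower in transgenic libraries.

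**Figure D2:**
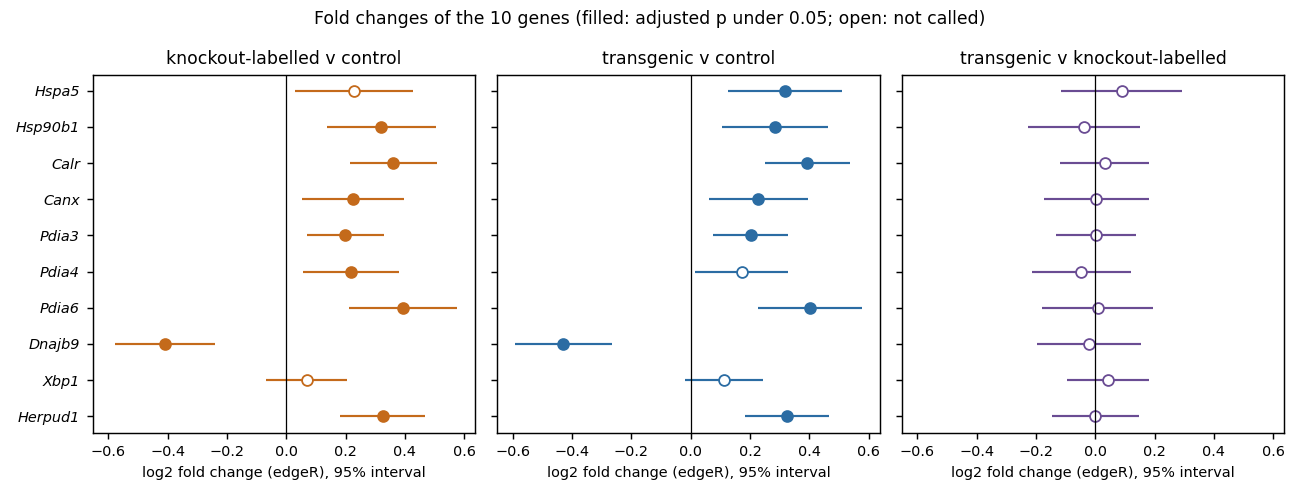
Log2 fold change from the edgeR fit, with its 95% interval, for each gene in the 3 comparisons, filled where the adjusted p was under 0.05. Against controls 7 genes lie to the right of 0 and Dnajb9 to the left in both panels as calls, and in the transgenic against knockout-labelled panel all 10 intervals include 0.

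Between transgenic and knockout-labelled libraries 0 of the 10 genes were called, where 1.17% of all genes were (edgeR, 1.07% higher and 0.0938% lower; 0 of the 10 were under 0.05 without adjustment, and DESeq2 and limma-voom also called 0). The log2 differences lay between -0.05 (Pdia4) and 0.09 (Hspa5), and the 95% intervals of the 10 stayed between -0.23 and 0.29, or 0.854-fold to 1.23-fold. Differences of up to those bounds are therefore not shown to be absent. The CPM of the groups overlapped for each of the 10 genes in that comparison, where 3.09% of all genes did not overlap.

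Levels of different genes can be compared only per length, on the authors' deposited TPM scale (transcripts scaled for length and library). In controls Calr was the highest at 286.8 ± 23.7 TPM (SD, n = 6), followed by Pdia3 (247.8 ± 16.2 TPM), Hsp90b1 (226.5 ± 20.5 TPM), Hspa5 (212.1 ± 32.8 TPM) and Canx (171.3 ± 10.9 TPM). Pdia6 (86.5 ± 2.7 TPM), Pdia4 (66.7 ± 5.5 TPM), Xbp1 (52.4 ± 4.4 TPM), Herpud1 (37.2 ± 3.7 TPM) and Dnajb9 (17.9 ± 1.4 TPM) made up the lower part. The order held between neighbours in 6 of 6 controls except for 2 pairs: Pdia3 was above Hsp90b1 in 5 of 6, and Hsp90b1 above Hspa5 in 5 of 6. The lumenal and lectin chaperones made up the upper part of the order, above the transcription factor Xbp1 and the degradation factor Herpud1.

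Hspa5 (ENSMUSG00000026864, chr2:34771970-34777547, GRCm38) encodes BiP, the HSP70 of the ER lumen that holds the stress sensors inactive. Its level was 227.9 to 343.5 CPM in controls (median 246.9), 302.5, 297.0, 293.3, 362.8 and 273.4 CPM in knockout-labelled replicates 1 to 5, and 327.3, 334.7, 322.2, 318.0 and 333.7 CPM in transgenic replicates 1 to 5. The 5 transgenic libraries were close together and above 5 of the 6 controls, but control replicate 6 was above all of them, so both groups overlapped with controls. The transgenic rise was 1.25-fold (log2 fold change 0.32, SE 0.09, adjusted p = 0.0123), and it was not called without control replicate 2 (adjusted p = 0.0539) or once GC content and length were corrected for (log2 fold change 0.17, adjusted p = 0.136), nor without the libraries high in interferon-response transcripts (control replicate 2 and transgenic replicates 3 and 5; adjusted p = 0.132). In knockout-labelled libraries the log2 fold change of 0.23 (SE 0.09) did not pass (adjusted p = 0.0845); it was 0.28 (adjusted p = 0.00703) without control replicate 6 and 0.13 (adjusted p = 0.281) without knockout-labelled replicate 4, the ends of its range with 1 library left out.

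Hsp90b1 (ENSMUSG00000020048, chr10:86690209-86705509) encodes GRP94, the HSP90 of the ER lumen, which folds integrins and Toll-like receptors. It was at 283.9 to 358.9 CPM in controls (median 332.1), 385.2, 408.8, 397.4, 511.5 and 356.0 CPM in knockout-labelled replicates and 373.1, 431.9, 377.5, 410.3 and 396.5 CPM in transgenic replicates. All 5 transgenic libraries lay above every control, and in the knockout-labelled group only replicate 5 fell inside the control range. The rise was 1.25-fold in knockout-labelled (log2 fold change 0.32, SE 0.09, adjusted p = 0.0127) and 1.22-fold in transgenic libraries (0.28, SE 0.08, adjusted p = 0.0146). Without knockout-labelled replicate 4 the first was 0.21 (adjusted p = 0.0413). Both calls were lost without control replicate 2 (adjusted p = 0.0599 and 0.0731), and the transgenic one without transgenic replicate 2 (0.0856). Both were also lost in males alone (adjusted p = 0.0821 and 0.242) and without the interferon-high libraries (0.101 and 0.0702), and the first without those high in class II transcripts (control replicate 1 and knockout-labelled replicates 1 to 3; 0.0741). Its estimated counts were not whole numbers in any library, so some of its reads were shared, and with which genes was not traced. Of the genes that overlap it, Gm15344 on the same strand had 0.338% of its mean count. The pseudogene 1810014B01Rik on the opposite strand had 1.37%.

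**Figure D3:**
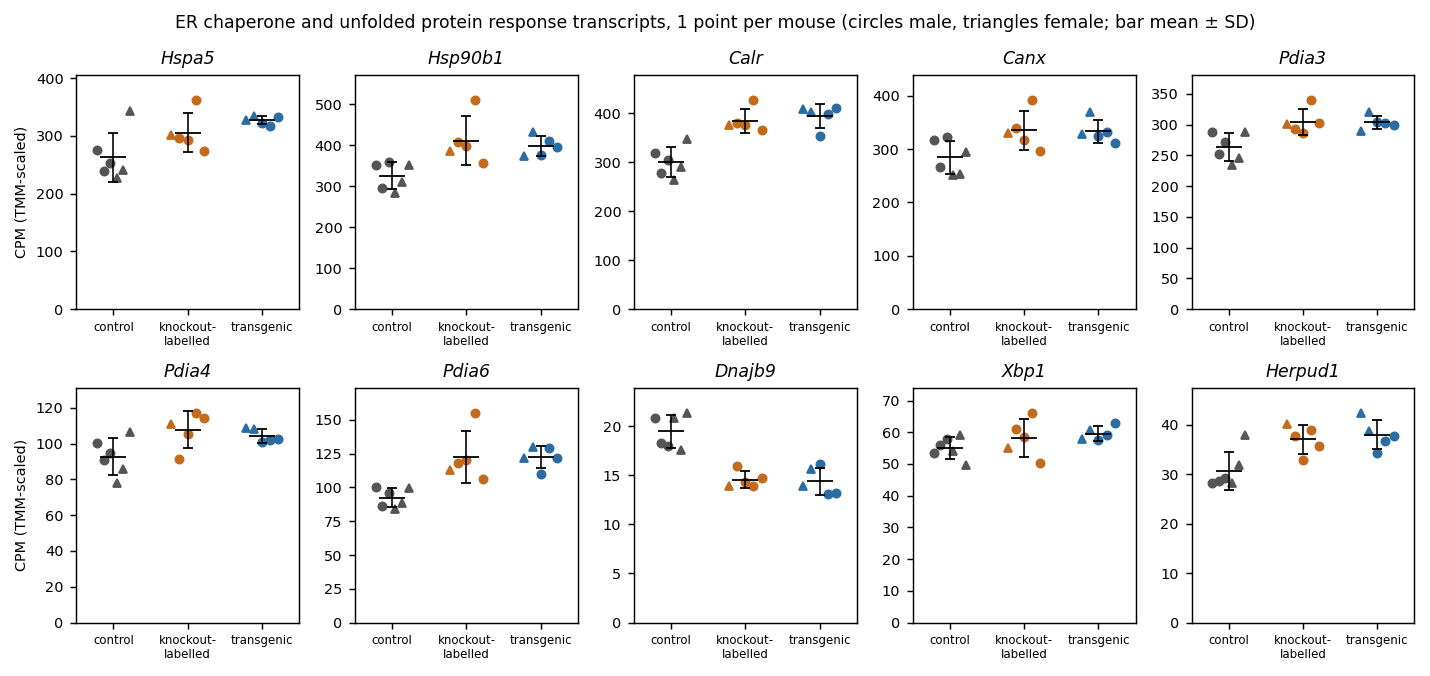
CPM of the 10 genes in each of the 16 libraries (circles male, triangles female), with the mean and SD of each group. Calr, Pdia6 and Dnajb9 show no overlap between knockout-labelled and control libraries, and those 3 together with Hsp90b1 and Pdia3 show none between transgenic and control libraries.

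Among the lectin chaperones and their partner enzyme, Calr changed most. Calr (ENSMUSG00000003814, chr8:84841850-84846934) encodes calreticulin, the soluble lectin chaperone of the ER lumen. It was at 263.1 to 347.5 CPM in controls (median 297.9), 376.3, 379.2, 376.0, 427.3 and 364.8 CPM in knockout-labelled replicates and 407.7, 402.2, 353.0, 397.2 and 410.9 CPM in transgenic replicates. Every library of both groups was above every control. The rise was 1.28-fold in knockout-labelled (log2 fold change 0.36, SE 0.07, adjusted p = 0.00173) and 1.31-fold in transgenic libraries (0.39, SE 0.07, adjusted p = 3.3e-04). These 2 calls held without each of the 16 libraries in turn.

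Canx (ENSMUSG00000020368, chr11:50293961-50325673) encodes calnexin, the membrane-bound counterpart of calreticulin, which binds newly made T cell receptor chains. It was at 251.5 to 322.7 CPM in controls (median 280.5), 295.4 to 392.4 CPM in knockout-labelled and 311.5 to 369.2 CPM in transgenic libraries, so that both groups overlapped with controls. The log2 fold change was 0.23 in each comparison (SE 0.08; adjusted p = 0.0495 in knockout-labelled and 0.0313 in transgenic libraries). Both calls were at the edge of the test: the first was lost in 13 of the 16 fits that leave out 1 library (adjusted p up to 0.19; it was kept without control replicate 1, control replicate 3 or knockout-labelled replicate 5), and the second in 9 of 16 (adjusted p up to 0.175; it was kept without control replicates 1 and 3, knockout-labelled replicates 1, 4 and 5, and transgenic replicates 3 and 5, each left out alone). Of the 15 other alternatives apart from the fold test, 12 ended the first call (adjusted p up to 0.294) and 6 the second (up to 0.647). The log2 fold change was 0.14 without knockout-labelled replicate 4 in the first comparison and 0.14 without transgenic replicate 2 in the second, where it was 0.07 in males alone.

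Pdia3 (ENSMUSG00000027248, chr2:121413775-121438687) encodes ERp57, the disulfide isomerase that works with calnexin and calreticulin. It was at 233.7 to 288.8 CPM in controls (median 262.4), 285.8 to 340.6 CPM in knockout-labelled and 290.2 to 320.8 CPM in transgenic libraries. The lowest transgenic library was just above the highest control. The rise was 1.15-fold in both (log2 fold change 0.20, SE 0.06; adjusted p = 0.0243 in knockout-labelled and 0.0142 in transgenic libraries). 7 of the 16 fits that leave out 1 library ended the knockout-labelled call, those without control replicate 2 or 5, knockout-labelled replicate 1, 4 or 5, or transgenic replicate 4 or 5 (adjusted p = 0.0513 to 0.112). The transgenic call was lost without control replicate 2 or 5 or transgenic replicate 2 (adjusted p = 0.0542 to 0.095), and the correction for GC content and length took its log2 fold change to 0.06 (adjusted p = 0.411). That correction, and the fit of only the groups compared, also ended the knockout-labelled call. Males alone (transgenic log2 fold change 0.13, adjusted p = 0.198) and the interferon-high libraries left out also ended both calls. Without the class II-high libraries the knockout-labelled value was 0.31, with only replicates 4 and 5 of that group left (340.6 and 303.3 CPM). Its replicates 1 to 3 were lower (300.8, 292.6 and 285.8 CPM).

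Of the other disulfide isomerases, Pdia6 rose clearly and Pdia4 was at the edge. Pdia6 (ENSMUSG00000020571, chr12:17266545-17284770) encodes P5, an isomerase that binds BiP. It was at 84.0 to 100.3 CPM in controls (median 92.4), 112.9, 117.9, 120.4, 155.2 and 105.9 CPM in knockout-labelled replicates and 121.7, 129.6, 109.8, 129.4 and 122.1 CPM in transgenic replicates. No library of either group overlapped with a control. The rise was 1.31-fold in knockout-labelled (log2 fold change 0.39, SE 0.09, adjusted p = 0.00365) and 1.32-fold in transgenic libraries (0.40, SE 0.08, adjusted p = 0.00143), and leaving out any 1 of the 16 libraries ended neither call; the transgenic call was lost in males alone (adjusted p = 0.0971).

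Pdia4 (ENSMUSG00000025823, chr6:47796141-47813430) encodes ERp72, an isomerase with several thioredoxin-like domains. It was at 78.1 to 106.7 CPM in controls (median 92.9), 91.2 to 117.2 CPM in knockout-labelled and 100.8 to 108.8 CPM in transgenic libraries, and the groups overlapped. The log2 fold change was 0.22 (SE 0.08, adjusted p = 0.0445) in knockout-labelled and 0.17 (SE 0.08, adjusted p = 0.0815, not called) in transgenic libraries. The knockout-labelled call was lost in 13 of the 16 fits that leave out 1 library (adjusted p up to 0.155; it was kept without control replicate 1, control replicate 6 or knockout-labelled replicate 2) and in 8 of the 15 other alternatives apart from the fold test. Without the class II-high libraries it was 0.36 (adjusted p = 0.0473). That fit keeps only knockout-labelled replicates 4 and 5 (117.2 and 114.1 CPM), and replicates 1 to 3 were lower (111.2, 91.2 and 105.2 CPM). In males alone the transgenic value was 0.07.

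The 3 genes tied to the response itself did not move together. Dnajb9 (ENSMUSG00000014905, chr12:44205559-44210326) encodes ERdj4, a BiP cofactor that returns IRE1 to its inactive state and is a target of XBP1. It was at 17.6 to 21.4 CPM in controls (median 19.5), 13.96, 15.96, 14.3, 13.9 and 14.8 CPM in knockout-labelled replicates and 13.95, 15.6, 16.1, 13.1 and 13.2 CPM in transgenic replicates. Every library of both groups was below every control. It fell by 0.41 on the log2 scale in knockout-labelled (SE 0.08, adjusted p = 0.00192) and by 0.43 in transgenic libraries (SE 0.08, adjusted p = 5.2e-04), and both calls held without each of the 16 libraries in turn. The knockout-labelled call was lost when the 4 libraries high in class II transcripts were left out together (log2 fold change -0.36, adjusted p = 0.0821), with fewer libraries in the fit. Its estimated counts were whole in 12 of 16 libraries, so in the other 4 a part of its reads was shared.

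Xbp1 (ENSMUSG00000020484, chr11:5520659-5525893) encodes the transcription factor that IRE1 activates by splicing. It was at 49.8 to 59.2 CPM in controls (median 55.1), 55.2, 61.0, 58.4, 66.1 and 50.4 CPM in knockout-labelled replicates and 58.0, 60.8, 57.4, 59.0 and 62.9 CPM in transgenic replicates. The groups overlapped, and neither difference was called (log2 fold change 0.07, SE 0.06, adjusted p = 0.456, and 0.11, SE 0.06, adjusted p = 0.172). The 95% intervals reach from 0.955-fold to 1.15-fold and from 0.986-fold to 1.18-fold, so a rise of that size is not shown to be absent. The sign turned in both comparisons with the GC content and length correction (-0.03 and -0.04), where the median over all genes was -0.019 and -0.045 in turn. Gene-level counts do not separate the spliced from the unspliced transcript.

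Herpud1 (ENSMUSG00000031770, chr8:94386438-94395377) encodes HERP, a membrane protein of the ER degradation complex. It was at 28.2 to 38.0 CPM in controls (median 28.9), 40.0, 37.6, 32.8, 38.9 and 35.6 CPM in knockout-labelled replicates and 42.3, 38.6, 34.4, 36.7 and 37.7 CPM in transgenic replicates. All libraries of both groups were above 5 of the 6 controls, and control replicate 6 lay among them. The rise was 1.25-fold in both (log2 fold change 0.32, SE 0.07; adjusted p = 0.00284 and 0.00124 in turn) and was called without each of the 16 libraries in turn. Without the class II-high libraries the knockout-labelled log2 fold change was 0.37 with an adjusted p of 0.0501, with only replicates 4 and 5 of that group left.

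In all, 3 of the 10 genes did not overlap between knockout-labelled and control libraries, where 14.1% of all genes did not, and 5 did not between transgenic and control libraries, where 21.6% did not. On the deposited TPM scale, which has no scaling between libraries beyond their total, the differences of group means were mostly smaller. As log2 ratios they were 0.09 and 0.15 for Hspa5, 0.15 and 0.08 for Hsp90b1, 0.26 and 0.25 for Calr, 0.24 and 0.15 for Canx, 0.15 and 0.12 for Pdia3, 0.14 and 0.06 for Pdia4, 0.26 and 0.21 for Pdia6, and 0.14 and 0.15 for Herpud1, in knockout-labelled and transgenic libraries in turn. The TPM ratio of Dnajb9 was -0.47 and -0.53, and that of Xbp1 was -0.01 and -0.03, below 0 where the CPM ratio was above it.

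Single libraries stood out across the set. Knockout-labelled replicate 4 was the highest of its group for 8 of the 10 genes and replicate 5 the lowest for 6. Control replicate 6 was the highest control for 6 genes, and control replicate 4 the lowest for 7. With control replicate 6 and knockout-labelled replicate 4 both left out, a choice made after these values were seen, Hspa5 was called higher in knockout-labelled libraries (log2 fold change 0.22, adjusted p = 0.00878), Canx was no longer called (0.17, adjusted p = 0.15), and Pdia4 was called higher in transgenic libraries (0.19, adjusted p = 0.0391).

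The chaperone genes varied together from library to library. Over the 16 libraries, which share their depth and group structure, Pearson's r of log2 CPM with Hspa5 was 0.90 for Calr (Spearman's rho 0.80), 0.88 for Pdia3 (0.74), 0.85 for Pdia6 (0.78), 0.83 for Hsp90b1 (0.67), 0.82 for Herpud1 (0.81), 0.78 for Canx (0.62) and 0.77 for Pdia4 (0.69). For Xbp1 it was 0.34 (0.37) and for Dnajb9 -0.53 (-0.46). With group and sex removed, r with Hspa5 was 0.66 to 0.87 for those 7 genes, 0.05 for Xbp1 and 0.21 for Dnajb9. The closest pair was Hsp90b1 and Pdia6 (r = 0.96, and 0.94 with group and sex removed). Over all 45 pairs the median r was 0.72, and 0.52 with group and sex removed. Outside the set, the 5 genes most like Hspa5 over the 16 libraries were Gm973 (r = 0.92), Tcrg-C4 (0.92), Pdlim1 (0.92), Rpl32 (0.91) and Dclre1b (0.91). Gm973 was at a low level, with means of 0.60 CPM in controls, 1.52 in knockout-labelled and 1.35 CPM in transgenic libraries. Among all genes, the rank by r was 9 for Calr, 32 for Pdia3, 102 for Pdia6 and 163 for Hsp90b1. It was 206 for Herpud1, 445 for Canx, 528 for Pdia4, 4708 for Xbp1 and 12981 for Dnajb9. Many genes outside the set therefore followed Hspa5 as closely as most genes of the set did. These values are descriptions of these libraries, given without a test.

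**Figure D4:**
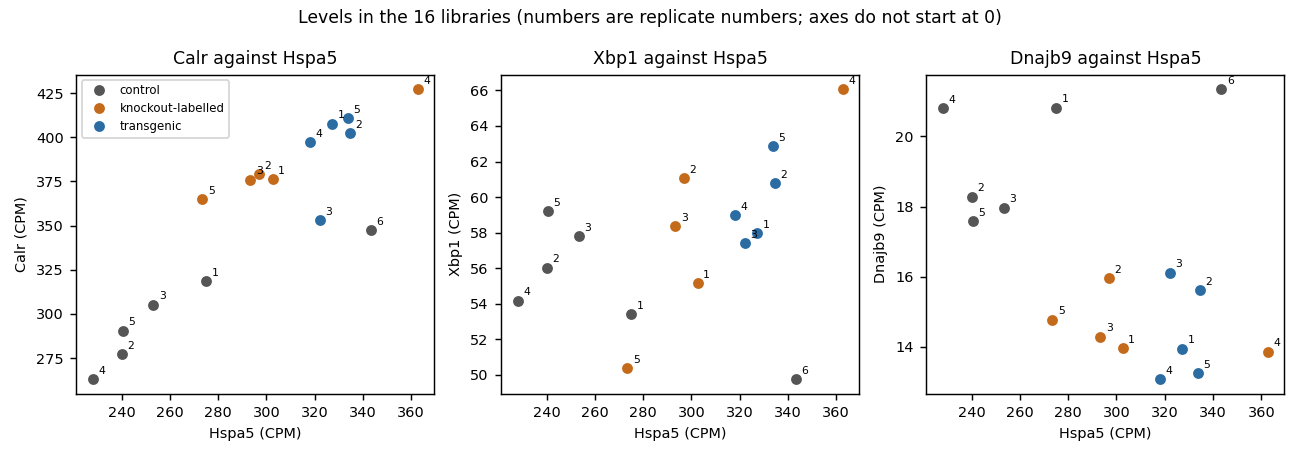
CPM of Calr, Xbp1 and Dnajb9 against CPM of Hspa5 in the 16 libraries, coloured by group and numbered by replicate, on axes that do not start at 0. Calr rises with Hspa5 (r = 0.90), Xbp1 is scattered (0.34), and Dnajb9 is at 17.6 CPM or more in controls and at 16.1 CPM or less in all other libraries.

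The other genes of the pathway were counted from lists chosen with earlier results of these data known, and the same calls, background shares and shared controls apply. Of 12 BiP co-chaperones and exchange factors, 4 were called higher and 3 lower in knockout-labelled libraries, and 6 and 3 in transgenic libraries (medians 0.11 and 0.17). Sdf2l1, a partner of the BiP cofactors, was at 12.2 CPM in controls, 20.5 in knockout-labelled and 19.5 CPM in transgenic libraries (log2 fold change 0.72, SE 0.12, adjusted p = 7.6e-04, and 0.67, SE 0.12, adjusted p = 3.8e-04; the second was lost in males alone, adjusted p = 0.0543). In the other direction, the translocon-bound J protein Sec63 fell by 0.26 on the log2 scale in knockout-labelled libraries (SE 0.06, adjusted p = 0.00277), and the J protein Dnajc1 fell by 0.21 in transgenic libraries (SE 0.04, adjusted p = 6.2e-04).

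Of 15 other disulfide and prolyl folding enzymes, 13 were tested; 5 were called higher and 1 lower in knockout-labelled libraries, and 7 and 0 in transgenic libraries (medians 0.09 and 0.16). Prdx4, the peroxiredoxin of the ER, was at 13.5 CPM in controls, 19.7 in knockout-labelled and 22.9 CPM in transgenic libraries (log2 fold change 0.52, SE 0.11, adjusted p = 0.00232, and 0.75, SE 0.10, adjusted p = 7.1e-05); the first call was lost in males alone (0.0606) and without the class II-high libraries (0.141). The disulfide isomerase Txndc5 rose by 0.38 (SE 0.07) in knockout-labelled libraries, and the prolyl isomerase Ppib by 0.37 (SE 0.05) in transgenic libraries. Of the 7 genes of the lectin chaperone cycle, 2 and 5 were called higher and 0 lower (medians 0.10 and 0.16). Mogs, the glucosidase that makes the first cut of the N-glycan, was at 67.8 CPM in controls, 83.4 in knockout-labelled and 83.0 CPM in transgenic libraries (log2 fold change 0.30, SE 0.04, and 0.29, SE 0.04). The cargo receptor Lman1 rose by 0.24 (SE 0.07) in knockout-labelled libraries, a call lost without control replicate 2 or 6 or knockout-labelled replicate 2 or 4 (adjusted p = 0.0521 to 0.103) and in 6 other alternatives (up to 0.154), and Lman2 rose by 0.22 (SE 0.04) in transgenic libraries.

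Of 15 translocon and signal peptidase genes, 3 and 6 were called higher and 0 lower (medians 0.04 and 0.12), among them the translocon-associated Ssr2 (0.33, SE 0.05, and 0.38, SE 0.05) and the channel subunit Sec61b (0.31, SE 0.06, and 0.39, SE 0.06). Of 18 ER-associated degradation genes, 17 were tested; 3 were called higher and 3 lower in knockout-labelled libraries, and 4 and 3 in transgenic libraries (medians 0.01 and 0.04). Edem1, a mannosidase-like protein that hands glycoproteins to degradation, was at 1710 CPM in controls and 1427 CPM in knockout-labelled libraries (log2 fold change -0.29, SE 0.08, adjusted p = 0.012; 0.0819 and 0.0542 without the class II-high and the interferon-high libraries), and Selenos, a subunit of the retrotranslocation complex, rose by 0.39 (SE 0.07) in transgenic libraries. Ubxn4, which helps to hold the degradation machinery at the membrane, fell by 0.19 in knockout-labelled libraries (SE 0.05, adjusted p = 0.0064; 0.199 without the class II-high libraries). Edem2, of the same family as Edem1, rose by 0.25 in transgenic libraries (SE 0.05, adjusted p = 0.00187), which became 0.09 (adjusted p = 0.215) with the GC content and length correction.

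Of 8 sensor and sensor-protease genes 1 was called higher in each comparison, where 16.4% and 23% of all genes were. These were Creb3l2 in knockout-labelled (0.28, SE 0.08, adjusted p = 0.0153) and Ern1, which encodes IRE1, in transgenic libraries (0.23, SE 0.08, adjusted p = 0.0402). Ern1 was lost in 11 of the 16 fits that leave out 1 library (adjusted p up to 0.171) and in 10 of the 15 other alternatives apart from the fold test (up to 0.225), and Creb3l2 without control replicate 2 or knockout-labelled replicate 2 (adjusted p = 0.0593 and 0.0625), without the class II-high (0.109) or the interferon-high libraries (0.099), and with no sex term (0.0564). Of 12 genes of the PERK and ATF4 arm, 8 were tested, 0 were called higher, and 1 and 2 were called lower, where 10% and 15.6% of all genes were. Ppp1r15a, the phosphatase subunit that ends PERK signalling, was at 64.0 CPM in controls, 15.96 CPM in knockout-labelled libraries and 13.6 CPM with the transgene, and it fell in both comparisons (log2 fold change -1.95, SE 0.23, and -2.21, SE 0.22), and Atf4 fell by 0.15 (SE 0.05) in transgenic libraries, a call lost without transgenic replicate 3 (adjusted p = 0.0683), without the interferon-high libraries (0.0676) and in males alone (0.195). Ddit3, which encodes the stress factor CHOP and was chosen here after its values were seen, was at 16.5 CPM in controls, 14.9 in knockout-labelled and 16.1 CPM in transgenic libraries and was not called.

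**Figure D5:**
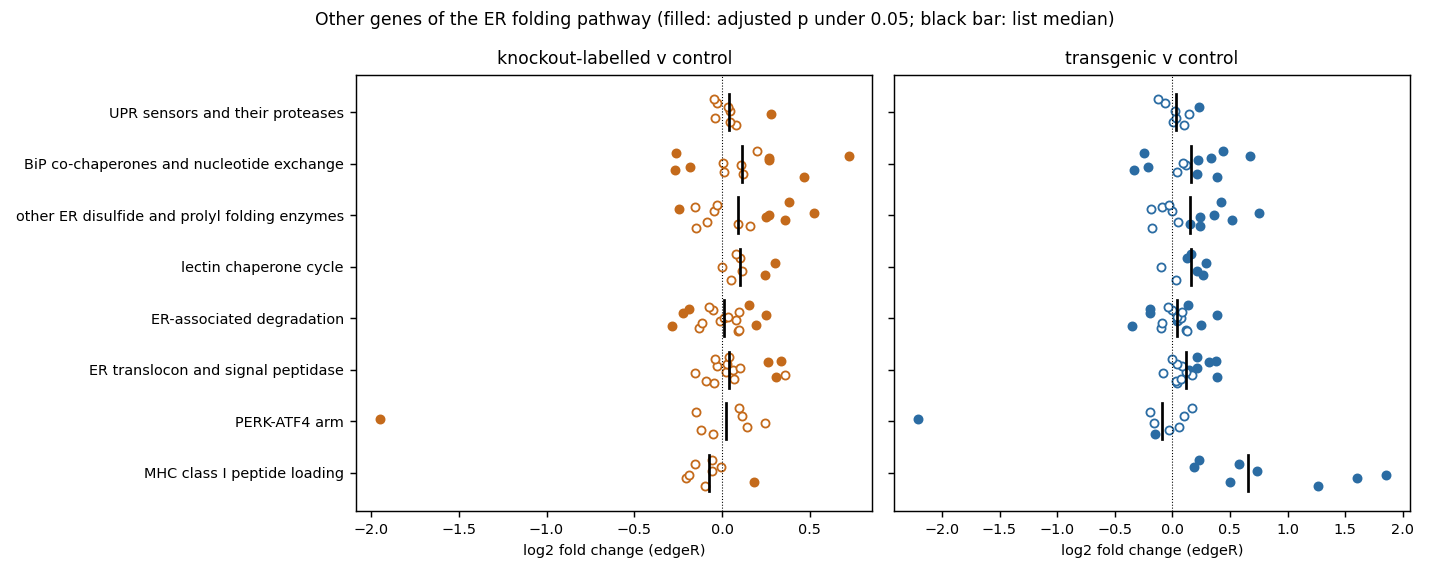
Log2 fold changes from the edgeR fit for the tested genes of the 8 pathway lists, filled where the adjusted p was under 0.05, with the median of each list as a black bar. The class I list lies to the right of 0 only in transgenic libraries (median 0.66), and Ppp1r15a is the lowest point in both panels (-1.95 and -2.21).

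MHC class I genes and those that load peptides onto them, with which calreticulin and PDIA3 work, made up the list with calls between the transgenic and knockout-labelled libraries. All 8 were called higher in transgenic libraries than in controls (median 0.66) and 7 of 8 than in knockout-labelled libraries (median 0.76). In knockout-labelled libraries 1 of 8, the peptide-trimming Erap1, was called higher than in controls (0.18, SE 0.05). That call was lost without knockout-labelled replicate 1, 2 or 4 (adjusted p = 0.0595 to 0.0777). It was also lost in males alone (adjusted p = 0.0641) and without the class II-high libraries (0.240). H2-D1, a class I heavy chain, was at 127.5 CPM in controls, 116.2 in knockout-labelled and 395.1 CPM in transgenic libraries (log2 fold change of transgenic over knockout-labelled 1.81, SE 0.20, adjusted p = 2.0e-04), and the heavy chain H2-K1 was at 44.4 CPM in knockout-labelled libraries and 176.6 CPM with the transgene (2.05, SE 0.24, adjusted p = 4.6e-04). In that same comparison Calr had a log2 difference of 0.03 (95% interval -0.12 to 0.18), Pdia3 of 0.00 (-0.13 to 0.14) and Canx of 0.00 (-0.17 to 0.18). In each of the other 7 lists 0 genes were called between transgenic and knockout-labelled libraries.

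Genes with an ERSE or ERSE-II match in a promoter window had 49 symbols, of which 25 were tested. Of the 6 in the set, 5 were called higher in knockout-labelled and 6 in transgenic libraries, the calls given for each above. Of the 19 outside it, 3 were called higher and 3 lower in knockout-labelled libraries (median 0.11), and 6 and 4 in transgenic libraries (median 0.15), against 16.4% and 10%, and 23% and 15.6%, of all genes. Among those in the pathway lists, and chosen here after their values were seen, Creld2 rose in both (0.46, SE 0.11, and 0.39, SE 0.11), and the degradation ligase Syvn1 fell in both (-0.23, SE 0.07, and -0.20, SE 0.07).

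Markers of other cell types moved with the groups, and their part in the values above was not tested. The 10 plasma cell and antibody markers, which stand for cells rich in ER chaperones, summed to 6.79 to 11.9 CPM in controls, 9.38 to 32.8 CPM in knockout-labelled libraries and 43.8 to 128 CPM in transgenic libraries. Of their 8 tested genes 0 were called in knockout-labelled and 7 higher in transgenic libraries. Against controls, the median log2 fold change of those 8 genes in knockout-labelled libraries was 0.75 (-0.78 to 1.13). The median sum was 11.2 CPM there and 8.06 CPM in controls. In knockout-labelled libraries Jchain was at 0.367 CPM and Mzb1 at 0.126 CPM, and the highest sum came from Sdc1 in 1 library (31.6 CPM). Between transgenic and knockout-labelled libraries 5 of the 8 were called higher. The 8 B cell markers summed to 389 to 457, 357 to 425 and 581 to 683 CPM, most of it Ighm, with 0 and 6 of 7 tested genes called higher and 2 and 0 lower. The 10 macrophage and dendritic cell markers summed to 4.33 to 26.0, 5.94 to 79.9 and 56.1 to 85.7 CPM, with 3 and 9 called higher. Without the class II-high libraries, 4 of the 10 chaperone and response genes were called in knockout-labelled libraries instead of 8. Over all genes, 1438 were called there instead of 3942. That fit leaves out knockout-labelled replicates 1 to 3 and control replicate 1, so fewer libraries are in it. The 9 markers of thymic epithelium and stroma summed to 183 to 202, 182 to 202 and 188 to 204 CPM, with 0 of 4 tested genes called, Col3a1 at 0 in all controls and Pdgfra at 0 in all other libraries. Of the 10 double-positive markers 3 were called lower and 1 higher in knockout-labelled, and 7 lower and 1 higher in transgenic libraries. Beside all these marker counts stand the shares of all genes tested. Against controls, 16.4% were called higher and 10% lower in knockout-labelled, and 23% and 15.6% in transgenic libraries. Between transgenic and knockout-labelled libraries 1.07% were called higher. In bulk samples, fewer cells of a type and less RNA per cell cannot be told apart.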

How the data were processed

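Sorted CD4+CD8+ thymocytes of 16 mice gave 1 stranded RNA library each, per the labels' protocols. The deposited files hold, for each of 46517 gene identifiers, a TPM value and an expected (estimated) count, both made by the authors; Bowtie 1.0.0, SAMtools 0.1.18, edgeR 3.24.3 and the builds GRCm38 and mm10 are listed per the submitters' processing notes, and the sources used here do not give the counting program. Of deposited estimated counts above 0, 58.7% were whole within 1e-06. The deposited TPM values sum to 1000000 in each library and served to order genes by level and for ratios of group means. A reference table of gene names matched 46005 identifiers to symbols (the other 512 held 0.171% of counts), and positions are from the GENCODE annotation of GRCm38.

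Estimated counts were rounded and fitted with edgeR 4.0.16 in R 4.3.3 (expression filter by group, TMM, robust quasi-likelihood, group and sex, all 16 libraries, 12 residual degrees of freedom, common coefficient of variation 0.128). P-values are two-sided and Benjamini-Hochberg adjusted over 14933 genes at 0.05; the standard error is the log2 fold change over the root of F. The fit was tested on simulated data. Alternatives were DESeq2 1.42.0, limma-voom (limma 3.58.1), RLE size factors, library totals, no or a stricter filter (1 CPM in 5 libraries), no robust estimation, no sex term, a replicate block, males alone, fits of just the groups compared, a fold of 1.2, a GC content and length spline (4 degrees of freedom), leaving out libraries high in class II or interferon-response transcripts (known from an earlier analysis of these files), leaving out each library, and, chosen after seeing the data, leaving out control replicate 6 with knockout-labelled replicate 4. Correlations used log2 CPM with a prior count of 2.

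Libraries of a group differed by more than sampling noise (chi-square per degree of freedom 4.55 to 79.7), and replicates are separate mice by their identifiers. Motifs were exact matches in RefSeq windows. The named genes are Nfkbid, the 10 genes of the set, the 2 genes of each pathway list with the smallest p in each comparison where called, the 5 genes most like Hspa5, and markers beside a result; Ddit3, Creld2 and Syvn1 were added after their values were seen. The set and the lists were chosen with earlier results of these data known.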

Additional observations from a re-analysis of the deposited data

Results flagged for a closer look

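In 33 groups of libraries (the 10 genes and Nfkbid in 3 groups), 2 had a library far from the others by Dixon's ratio, a check that chance trips in about 1 of 20 groups. Calr was at 427.3 CPM in knockout-labelled replicate 4, the highest of its group, and the nearest other library of the group was at 379.2 CPM. Calr was at 353.0 CPM in transgenic replicate 3, the lowest of its group, and the nearest other library was at 397.2 CPM. Both libraries lie above every control, whose highest was 347.5 CPM.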

How the results depend on the processing

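Over 32 alternatives, the count of the 10 genes called was 0 in each one for transgenic v knockout-labelled libraries. For knockout-labelled v control libraries it went from 8 to 4 without the libraries high in class II transcripts (control replicate 1 and knockout-labelled replicates 1 to 3), to 4 without those high in interferon-response transcripts (control replicate 2, transgenic replicates 3 and 5), to 4 in males alone, to 5 with only the groups compared and to 0 against a fold of 1.2, and it was 4 to 8 when 1 library was left out. For transgenic v control libraries it went from 8 to 4 without the interferon-high libraries, to 5 with the GC content and length correction, to 4 in males alone and to 0 against a fold of 1.2, and it was 4 to 8 when 1 library was left out. The lowest counts with 1 library left out, 4 in both comparisons, came without control replicate 2; counts of 5 came without control replicate 5, knockout-labelled replicate 1 or 4 or transgenic replicate 4 or 5 in the first comparison, and without transgenic replicate 2 in the second. Fewer libraries are left in those fits. Leaving out transgenic replicate 4 or 5 takes no library from the groups of the first comparison. There the median log2 fold change over all genes went from 0.018 to -0.0086 and -0.0087 in turn. The cause of the lower counts was not tested. Against a fold of 1.2 and the class II setting apart, Calr, Pdia6, Dnajb9 and Herpud1 kept their calls in knockout-labelled libraries; in transgenic libraries Calr, Dnajb9 and Herpud1 lost theirs only against that fold, and Pdia6 also in males alone (adjusted p = 0.0971).

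Over all genes, the knockout-labelled count of 3942 was 1438 and 2289 without the class II and interferon libraries and 414 against a fold of 1.2. It was 2751 in males and 3457 with only the groups compared. The transgenic count of 5765 was 3160 in males, 4391 without the interferon libraries and 1428 against that fold. With the GC content and length correction the 2 counts were 4079 and 5972, and without control replicate 2 they were 2863 and 4977. The knockout-labelled count was 3825 without transgenic replicate 4 and 3789 without transgenic replicate 5. The count of 174 between transgenic and knockout-labelled libraries (160 higher, 14 lower) was 342 with DESeq2 (277 higher, 65 lower), 278 with no filter, 106 in males and 99 against that fold.

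Signs turned only near 0. Nfkbid in knockout-labelled libraries was -0.048 with no sex term, -0.0086 with only the groups compared, and -0.053 (without replicate 5) to 0.14 (without replicate 1) when a knockout-labelled library was left out. Xbp1 in knockout-labelled libraries was -0.030 with the GC content and length correction, -0.010 without control replicate 6 and knockout-labelled replicate 4, and -0.0043 (without replicate 4) to 0.089 (without replicate 1) when 1 of that group was left out; in transgenic libraries it was -0.036 with that correction. Between transgenic and knockout-labelled libraries, 8 of the 9 genes other than Hspa5 turned sign somewhere, within -0.16 to 0.10 (lowest adjusted p = 0.637).

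Replicate numbers do not pair the samples: deviations of same-numbered libraries correlated at -0.09 to 0.27 in 15 pairs, with 1 over 0.1. With the replicate block 8, 9 and 0 of the 10 genes were called in the 3 comparisons. In the block fit Hspa5 was called in knockout-labelled libraries (0.29, adjusted p = 0.00876), Pdia4 in transgenic libraries (0.22, adjusted p = 0.0279), and Canx was not called in knockout-labelled libraries (0.23, adjusted p = 0.0585).

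In 32 alternatives the class I list had 6 to 8 calls in transgenic libraries against controls and 4 to 8 against knockout-labelled libraries, and the lowest count called higher against controls was 0 to 3 in the other lists. A planned description of protein features was not run.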
